A study of Homo sapiens with 6 samples.

Results

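The genes described here are the 10 genes of the immunoproteasome and of peptide loading onto MHC class I molecules, *PSMB8*, *PSMB9*, *PSMB10*, *PSME1*, *PSME2*, *TAP1*, *TAP2*, *TAPBP*, *ERAP1* and *ERAP2*. They were chosen by symbol, and each had 1 row among the 22807 genes of the deposited table. The RNA was taken from MDA-MB-453, a HER2+ line of breast cancer cells grown in RPMI with fetal bovine serum, after transfection with scrambled siRNA (3 libraries) or *DUSP6* siRNA (3 libraries). *DUSP6* encodes a dual-specificity phosphatase that removes phosphates from the kinase ERK. The study's figure legend gives 3 different siRNAs in each group, and which siRNA went into which library was not known here, so the libraries were treated as replicates. Nothing in the labels says that the 3 libraries of a group came from separate cultures, so the p-values measure the spread between these libraries only, which may be partly technical. The question was which transcripts change when *DUSP6* is depleted.

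Proteasomes cut cytosolic proteins into peptides, and a small part of these peptides ends up on MHC class I molecules at the cell surface. In cells exposed to interferon, the catalytic subunits PSMB5, PSMB6 and PSMB7 are replaced in newly built proteasomes by PSMB8, PSMB9 and PSMB10, which changes the ends of the peptides that are made. PSME1 and PSME2 form the PA28 cap of the proteasome, TAP1 and TAP2 the transporter that carries peptides into the endoplasmic reticulum, tapasin (TAPBP) holds class I molecules next to that transporter, and ERAP1 and ERAP2 trim peptides inside the endoplasmic reticulum. These genes are known for their response to interferons, which acts partly through a promoter element bound by IRF factors, the interferon-stimulated response element (ISRE).

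To show what the promoters share, the ISRE core, spelled GAAA, any 2 bases (NN) and GAAA again, and searched on both strands, was looked up in the RefSeq promoter windows on GRCh38.p14, which run from 250 bases before to 50 bases after each annotated start. All 10 genes had at least 1 window, and 9 of them held a match. Among the 35116 windows of all genes 3.57% held one, and counted by gene it was 3.84% of the tested genes with a window, 6.74% of those called higher and 22.5% of those called higher with a log2 fold change above 1. These sets hold all or some of the 10 genes, and the called sets were formed from these same data. Of the class I chains with a window, 2 of 5 held a match. Among the genes of interferon signalling and class I regulation it was 2 of 14. The shares were not tested. The 9 elements are printed below with 15 bases on each side, 5′ to 3′ in the sense of the gene and with the matches in capitals. They lie at chr6:32844027-32844066 (-), chr16:67936847-67936886 (-), chr14:24136184-24136223 (+), chr14:24146614-24146653 (-), chr6:32853808-32853853 (-), chr6:32838773-32838812 (-), chr6:33314068-33314113 (-), chr5:96807919-96807958 (-) and chr5:96876455-96876494 (+).
PSMB8: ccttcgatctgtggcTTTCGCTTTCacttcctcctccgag
PSMB10: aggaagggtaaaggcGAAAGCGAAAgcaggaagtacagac
PSME1: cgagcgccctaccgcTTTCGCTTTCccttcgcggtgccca
PSME2: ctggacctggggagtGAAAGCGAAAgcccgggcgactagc
TAP1: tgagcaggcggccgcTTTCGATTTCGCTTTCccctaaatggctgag
TAP2: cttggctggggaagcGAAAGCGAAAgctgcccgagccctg
TAPBP: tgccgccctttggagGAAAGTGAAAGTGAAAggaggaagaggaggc
ERAP1: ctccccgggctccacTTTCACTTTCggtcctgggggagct
ERAP2: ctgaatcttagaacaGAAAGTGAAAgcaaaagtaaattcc

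The matches read in the sense of the gene in *PSMB10*, *PSME2*, *TAP2*, *TAPBP* and *ERAP2* and on the opposite strand in *PSMB8*, *PSME1*, *TAP1* and *ERAP1*. *TAP1* and *TAPBP* each held 2 overlapping matches. Most lay close to the start. The match began 4 bases upstream of the second annotated start of *PSMB8*, 20 bases upstream in *TAPBP*, 21 in *PSMB10*, 28 in *PSME2*, 30 upstream of the second start of *ERAP2*, 58 in *TAP2* and 134 in *TAP1*, and it began 5 bases past the start in *PSME1* and 2 bases past the first start of *ERAP1*. A second motif, the gamma-activated site TTCNNNGAA, was found in windows of 2 of the 10 genes, *PSMB8* and *TAP1*, and in 8.49% of the tested genes with a window. Of the 3 catalytic subunits that are replaced, only *PSMB5* had windows, 2 of them, which held no ISRE core, and the second held 2 gamma-activated sites. A match describes letters in a window and does not show a bound site.

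**Figure D1:**
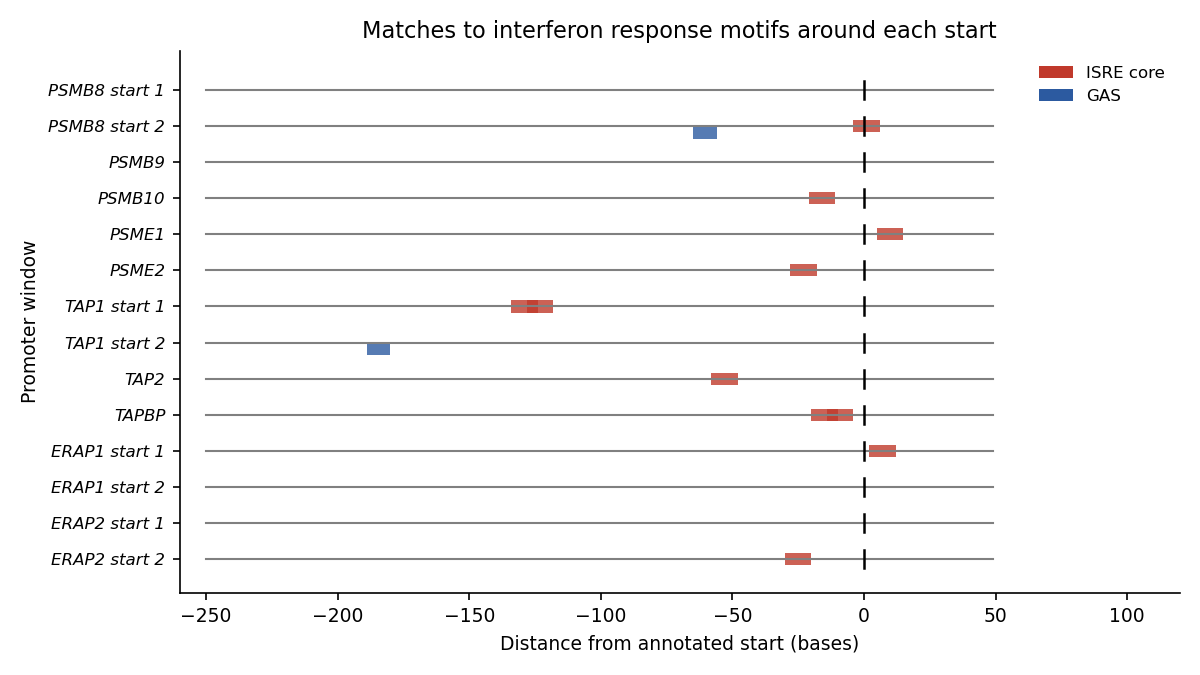
Matches to the ISRE core (red) and the gamma-activated site (blue) in the promoter windows of the 10 genes, plotted by distance from the annotated start in bases (black tick), with 1 line for each annotated start. Red boxes are seen in windows of 9 genes and in none for *PSMB9*, and they sit within 60 bases of the start except in *TAP1*.

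*PSMB9* was the gene without an ISRE core in its own window. It is read away from *TAP1*, its neighbour, and the 2 starts are 487 bases apart on chromosome 6. The windows of the 2 genes are printed whole because they overlap by 13 bases and together cover all of that interval. The *TAP1* window lies at chr6:32853655-32853954 (-) and the *PSMB9* window at chr6:32853942-32854241 (+), and the *TAP1* matches, in capitals, lie 354 bases from the start of *PSMB9*.
TAP1: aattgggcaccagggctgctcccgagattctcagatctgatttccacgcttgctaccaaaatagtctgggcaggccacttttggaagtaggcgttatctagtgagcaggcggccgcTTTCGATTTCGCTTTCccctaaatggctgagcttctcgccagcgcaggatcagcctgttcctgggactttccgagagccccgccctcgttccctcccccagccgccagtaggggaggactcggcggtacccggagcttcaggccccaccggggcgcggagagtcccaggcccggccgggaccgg
PSMB9: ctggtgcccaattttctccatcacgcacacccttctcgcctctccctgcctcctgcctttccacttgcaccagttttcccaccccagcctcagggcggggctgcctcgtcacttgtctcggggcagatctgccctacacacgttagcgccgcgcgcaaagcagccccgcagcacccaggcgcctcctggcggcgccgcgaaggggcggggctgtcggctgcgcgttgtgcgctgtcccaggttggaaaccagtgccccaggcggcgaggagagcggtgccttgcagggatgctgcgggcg

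The recovered depth was 45546981 to 85729785 reads per library, so that 1 read corresponds to a normalized value of 0.0121 to 0.0202. *DUSP6* itself, the targeted gene, had values of 209, 110 and 114 with scrambled siRNA and 39.4, 24.5 and 35.2 with *DUSP6* siRNA (log2 fold change -2.05, standard error 0.25, limma adjusted p = 3.09e-04). The luminal and HER2+ markers *ERBB2*, *KRT8*, *KRT18*, *EPCAM*, *CDH1*, *GATA3* and *FOXA1* were all detected, and *ERBB2*, the gene of HER2, was at 984 ± 94.3 against 495 ± 33.6 with *DUSP6* siRNA (SD, n = 3 each). Immune cells express the immunoproteasome at rest, and of their 14 markers 9 were in the table, with a summed value of 5.04 to 6.29 with scrambled siRNA and 4.43 to 6.30 with *DUSP6* siRNA. *CD68* made up most of it, and *PTPRC* had at most 4 reads in any library. *HLA-DRA* had 0 reads in the scrambled siRNA libraries and 2, 2 and 1 reads in the *DUSP6* siRNA libraries. Of the 7 fibroblast and endothelial markers, *COL1A1* was at 92.2 ± 12.2 against 173 ± 16.7 with *DUSP6* siRNA (SD, n = 3 each), and each of the other 6 had a mean of at most 0.224 in either group. The part of the shifts in *COL1A1* and *ERBB2* in the results for the 10 genes was not tested.

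All 10 genes were higher with *DUSP6* siRNA, without overlap between the libraries of the 2 groups, and 10 of 10 were called higher by limma over all genes at an adjusted p under 0.05. For comparison, 19.7% of the 12862 tested genes were called higher and 24.7% lower (44.5% in either direction), and 26.7% were higher and 31.1% lower without overlap. Of the 10, 6 had a log2 fold change above 1, against 2.67% of tested genes that were called higher and passed that size. Genes were tested where the mean value over the 6 libraries was at least 1. *PSMB9* passed only through its values with *DUSP6* siRNA, and the other 9 had a mean of at least 1 with scrambled siRNA as well. For each of the 10 the two-sided exact permutation test gave p = 0.1, the smallest that 3 libraries against 3 allow. Libraries of bulk RNA cannot tell more RNA per cell from more cells that express a gene.

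The 3 interferon-inducible catalytic subunits were all called higher, and *PSMB8* and *PSMB9* rose from low levels. *PSMB8* (Entrez gene 5696, chromosome 6, 32840717 to 32844679 on GRCh38), which takes the place of PSMB5, had normalized values of 1.89, 1.26 and 1.61 in replicates 1 to 3 with scrambled siRNA, and 25.1, 16.2 and 22.9 in those with *DUSP6* siRNA. The lowest *DUSP6* siRNA library was far above the highest scrambled siRNA library. The mean rose from 1.59 ± 0.31 to 21.4 ± 4.68 (SD, n = 3 each), a ratio of means of 13.5 and a log2 fold change on the log2(value + 1) scale of 3.10 ± 0.17 (SE, adjusted p = 4.88e-06 by limma). *PSMB9* (Entrez gene 5698, chromosome 6, 32854192 to 32859851), which takes the place of PSMB6, had 0.298, 0.0958 and 0.133 with scrambled siRNA, or 20, 5 and 11 reads, and 4.75, 3.74 and 4.94 with *DUSP6* siRNA, or 235, 306 and 320 reads. It was thus close to undetected in the scrambled siRNA libraries and present in all 3 others. The mean rose from 0.175 ± 0.107 to 4.48 ± 0.646 (SD, n = 3 each), a ratio of means of 25.6. Its log2 fold change was 2.22 ± 0.13 (SE, adjusted p = 6.64e-06 by limma) on the log2(value + 1) scale, which understates the change of low genes, and 4.64 by edgeR from the recovered reads (quasi-likelihood test, adjusted p = 2.17e-05). *PSMB10* (Entrez gene 5699, chromosome 16, 67934506 to 67936850), which takes the place of PSMB7, had 9.0, 7.09 and 11.7 with scrambled siRNA and 25.8, 19.04 and 25.4 with *DUSP6* siRNA. Its log2 fold change was the smallest of the 3. The mean went from 9.28 ± 2.34 to 23.4 ± 3.77 (SD, n = 3 each), a log2 fold change of 1.26 ± 0.18 (SE, adjusted p = 7.18e-04 by limma).

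The constitutive subunits that these 3 replace did not pass the test. *PSMB5* had 116, 121 and 165 with scrambled siRNA and 147.8, 154 and 147 with *DUSP6* siRNA, with a log2 fold change of 0.17 (adjusted p = 0.302 by limma). The values of *PSMB6* were 57.8, 55.6 and 68.7 against 64.3, 69.7 and 67.2 (log2 fold change 0.15, limma adjusted p = 0.270), and those of *PSMB7* were 62.6, 63.9 and 74.4 against 69.1, 73.7 and 73.9 (log2 fold change 0.11, limma adjusted p = 0.375). For all 3 the groups overlapped, with scrambled siRNA replicate 3 the highest of its group. Without that library, 2 of the 3 were called higher. The log2 ratio within a library, with 1 added to both values, depends little on the scaling between libraries, and it was compared for 7 pairs of genes. The *PSMB8* to *PSMB5* ratio differed by 2.92, that of *PSMB9* to *PSMB6* by 2.07 and that of *PSMB10* to *PSMB7* by 1.15 between the groups, without overlap (two-sided exact permutation test, p = 0.1 each, or 0.117 after Benjamini-Hochberg adjustment over the 7 pairs). With a pseudocount of 0.1 the *PSMB9* to *PSMB6* difference was 3.97.

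Per kb of the canonical transcript, *PSMB8* made up 1.49%, 0.963% and 0.903% of the mRNA of *PSMB8* and *PSMB5* together in the scrambled siRNA libraries and 13.6%, 8.86% and 12.7% in the *DUSP6* siRNA libraries. The share of *PSMB9* with *PSMB6* was 0.416%, 0.139% and 0.156% against 5.65%, 4.17% and 5.63%. That of *PSMB10* with *PSMB7* was 12.6%, 10.1% and 13.7% against 27.3%, 20.6% and 25.7%. In every library and at every position the constitutive subunit thus kept the larger share of the mRNA, and *PSMB10* was the one with a sizeable share at the start. These are shares of mRNA and say nothing of the assembled proteasomes.

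**Figure D2:**
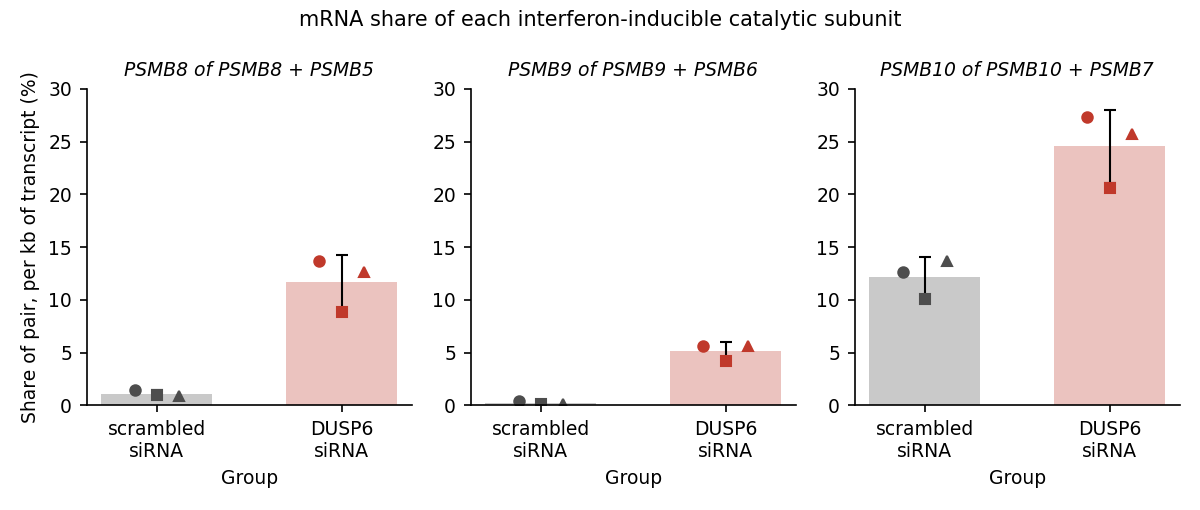
Share of each interferon-inducible catalytic subunit in the mRNA of its pair, in percent per kb of canonical transcript, for scrambled siRNA (grey) and *DUSP6* siRNA (red); bars are means of 3 libraries, error bars the SD, and circles, squares and triangles replicates 1, 2 and 3. The 3 *DUSP6* siRNA libraries are above the scrambled siRNA libraries in every panel, from 8.86% to 13.6% for *PSMB8*, 4.17% to 5.65% for *PSMB9* and 20.6% to 27.3% for *PSMB10*.

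The 2 subunits of the PA28 cap were the most abundant of the 10 genes per kb of transcript and had the smallest log2 fold changes. *PSME1* (Entrez gene 5720, chromosome 14, 24136194 to 24138962), the alpha subunit, had values of 66.5, 60.9 and 77.1 with scrambled siRNA and 121.8, 107 and 118 with *DUSP6* siRNA. Its mean rose from 68.2 ± 8.22 to 116 ± 7.46 (SD, n = 3 each), a log2 fold change of 0.76 ± 0.11 (SE, adjusted p = 6.57e-04 by limma). *PSME2* (Entrez gene 5721, chromosome 14, 24143365 to 24146610), the beta subunit, had 59.7, 48.5 and 75.1 against 109, 90.5 and 112. The scrambled siRNA libraries were more spread for this gene, with replicate 3 the highest, and the groups still did not overlap. Its log2 fold change was 0.77 ± 0.16 (SE, adjusted p = 0.00418 by limma). In GENCODE v44, 6.03% of its exon sequence is shared with *RNF31* on the opposite strand. The RefSeq spans of *PSME2* and *RNF31* lie 265 bases apart, so whether this overlap affects the value is not known here. The log2 ratio of *PSME1* to *PSME2* was 0.17 ± 0.14 and 0.16 ± 0.09 (SD, n = 3 each) in the 2 groups, a difference of -0.01 with overlapping groups (exact permutation test, p = 1). *PSME3*, which forms a separate nuclear cap of the proteasome, had 110, 99.6 and 103 against 93.4, 98.7 and 94.3 (log2 fold change -0.13, limma adjusted p = 0.241), and it shares 5.82% of its exon sequence with *BECN1*. The log2 ratio of *PSME2* to *PSME3* was higher by 0.90 with *DUSP6* siRNA, without overlap (exact permutation test, p = 0.1, adjusted 0.117).

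Among the genes of peptide transport, both chains of the transporter rose several-fold. *TAP1* (Entrez gene 6890, chromosome 6, 32845209 to 32853704) had values of 6.78, 5.65 and 8.98 with scrambled siRNA and 77.4, 59.0 and 78.5 with *DUSP6* siRNA. This was the largest log2 fold change of the 10 on this scale, 3.17 ± 0.17 (SE, adjusted p = 3.94e-06 by limma), with a ratio of means of 10.0. *TAP2* (Entrez gene 6891, chromosome 6, 32821831 to 32838739) had 17.9, 11.0 and 17.99 against 113, 92.6 and 114. Its mean rose from 15.6 ± 4.02 to 106 ± 12.1 (SD, n = 3 each), a log2 fold change of 2.72 ± 0.18 (SE, adjusted p = 1.19e-05 by limma). Scrambled siRNA replicate 2 was the lowest library for both genes, and for *TAP2* it stood well below the 2 others. The log2 ratio of *TAP1* to *TAP2* was higher by 0.45 with *DUSP6* siRNA, without overlap (exact permutation test, p = 0.1, adjusted 0.117). *TAPBP* (Entrez gene 6892, chromosome 6, 33299694 to 33314078), the tapasin gene, had 53.2, 50.9 and 49.2 against 103, 89.1 and 99.3. It was the most even of the 10 with scrambled siRNA, and its log2 fold change was 0.91 ± 0.09 (SE, adjusted p = 1.11e-04 by limma).

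The 2 peptidases of the endoplasmic reticulum differed in the size of their increase. *ERAP1* (Entrez gene 51752, chromosome 5, 96760813 to 96935854), which shares 3.76% of its exon sequence with *CAST* on the opposite strand, had values of 20.1, 22.0 and 24.2 with scrambled siRNA and 38.9, 38.8 and 42.3 with *DUSP6* siRNA. The groups did not overlap, and the log2 fold change was 0.83 ± 0.10 (SE, adjusted p = 3.34e-04 by limma). *ERAP2* (Entrez gene 64167, chromosome 5, 96875984 to 96919716), which lies within the RefSeq span of *ERAP1* on the opposite strand, had 5.19, 6.25 and 5.16 against 35.5, 33.2 and 38.2. Its mean rose from 5.53 ± 0.62 to 35.6 ± 2.48 (SD, n = 3 each), a log2 fold change of 2.49 ± 0.11 (SE, adjusted p = 1.63e-06 by limma), which had the smallest adjusted p of the 10. With scrambled siRNA *ERAP1* was thus well above *ERAP2*, and with *DUSP6* siRNA the 2 genes were close. The log2 ratio of *ERAP1* to *ERAP2* went from 1.82 ± 0.19 to 0.16 ± 0.05 (SD, n = 3 each), a difference of -1.66 without overlap (exact permutation test, p = 0.1, adjusted 0.117).

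**Figure D3:**
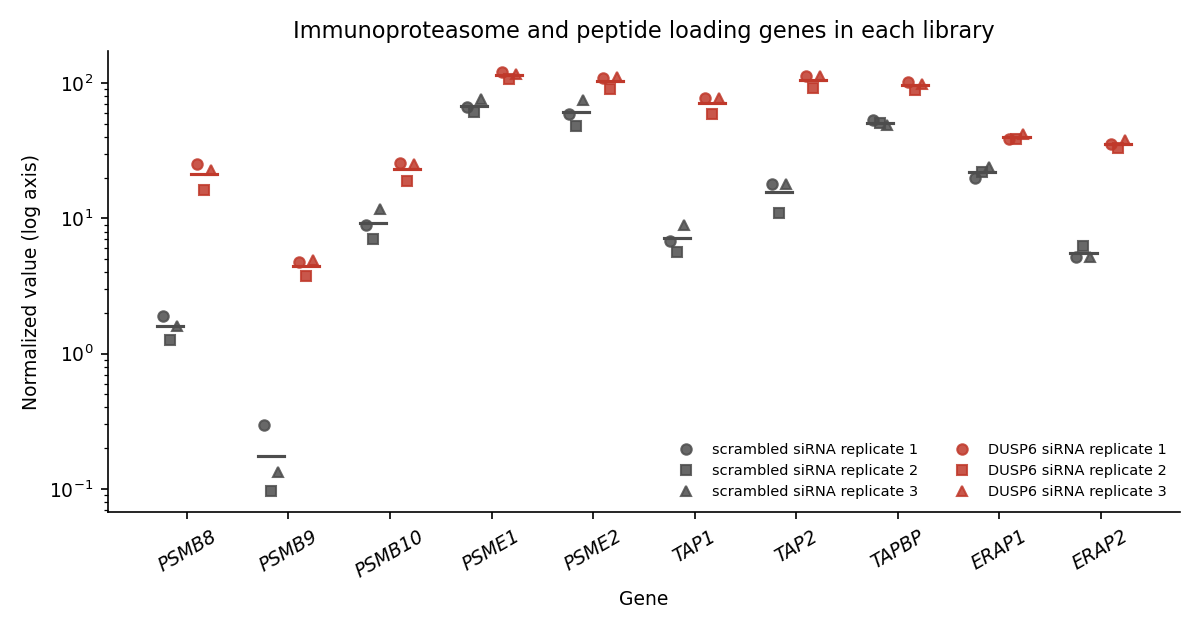
Normalized value (log axis) of the 10 genes in each of the 6 libraries, with scrambled siRNA in grey and *DUSP6* siRNA in red, circles, squares and triangles for replicates 1, 2 and 3, and a line at the group mean. The groups are apart for every gene, widest for *PSMB9* (means of 0.175 and 4.48) and narrowest for *PSME1* (68.2 and 116) and *PSME2* (61.1 and 104).

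*TAP2*, *PSMB8*, *TAP1* and *PSMB9* lie side by side within 38.0 kb of chromosome 6, in the class II region of the MHC. The gene *PSMB8-AS1* runs through this stretch, and its exons cover 17.3% of those of *PSMB8*, 14.2% of those of *TAP1* and 5.21% of those of *PSMB9*, as read from GENCODE v44. It had 3, 1 and 6 reads with scrambled siRNA and 65, 97 and 87 reads with *DUSP6* siRNA, against 127, 66 and 134 reads and 1243, 1321 and 1484 reads on *PSMB8*. It is antisense to *PSMB8* and *TAP1* and on the same strand as *PSMB9*. Reads from exons that overlap on opposite strands cannot be told apart without strand, so the values of *PSMB8* and *TAP1* are uncertain to that extent. In the RefSeq positions *PSMB8-AS1* (32844086 to 32846500) ends before *PSMB9* begins at 32854192. The overlap with *PSMB9* is thus seen in GENCODE only, and whether it affects the value of *PSMB9* is not known here. In GENCODE v44 *PSME1* shared 0.507% of its exon sequence with *EMC9*, whose RefSeq span lies 3 bases away. The microRNA gene *MIR7703*, with at most 3 reads in any library, lies within *PSME2*. *TAP2*, *PSMB10*, *TAPBP* and *ERAP2* shared no exon sequence with another gene of the table in GENCODE v44. In the RefSeq positions, however, the span of *RGL2* (33291654 to 33301612) overlaps that of *TAPBP* (33299694 to 33314078). Whether this affects the value of *TAPBP* is not known here.

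Levels of different genes were set side by side per kb of canonical transcript. With scrambled siRNA the order was *PSME2* (77.1 ± 16.9 per kb, SD, n = 3) and *PSME1* (70.6 ± 8.51), whose libraries overlapped, then *TAPBP* (14.8 ± 0.577), *PSMB10* (9.50 ± 2.40) and *ERAP1* (4.56 ± 0.427). Next came *TAP2* (2.76 ± 0.712) and *TAP1* (2.66 ± 0.630), which overlapped, *PSMB8* (1.41 ± 0.279) and *ERAP2* (1.08 ± 0.121), which overlapped too, and *PSMB9* (0.172 ± 0.106). With *DUSP6* siRNA *PSME2* (131 ± 14.6 per kb) and *PSME1* (120 ± 7.73) were again first and overlapped. *TAPBP* (28.1 ± 2.04), *TAP1* (26.7 ± 4.09), *PSMB10* (23.9 ± 3.86), *PSMB8* (19.04 ± 4.16) and *TAP2* (18.9 ± 2.14) followed, each overlapping the next, with *ERAP1* (8.27 ± 0.409), *ERAP2* (6.95 ± 0.484) and *PSMB9* (4.404 ± 0.635) below them. The 10 genes were thus spread less widely with *DUSP6* siRNA, and *PSMB9* was the lowest in both groups. Compared within each *DUSP6* siRNA library, *PSME2* was always above *PSME1*, *TAP1* above *PSMB10* and *PSMB10* above *PSMB8*. The order of *TAPBP* and *TAP1*, and that of *PSMB8* and *TAP2*, differed between those libraries. With scrambled siRNA the order within each overlapping pair differed between libraries.

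The 3 *DUSP6* siRNA libraries were not alike. *DUSP6* siRNA replicate 2 was the lowest of the 3 for all 10 genes, from 75.5% of the group mean for *PSMB8* to 97.0% for *ERAP1*. Among the 2540 genes called higher, that library was the lowest for 17.8%. It also had the lowest value of *DUSP6* itself, 24.5. With scrambled siRNA, replicate 2 was the lowest of its group for 7 of the 10, all but *TAPBP*, *ERAP1* and *ERAP2*. Without *DUSP6* siRNA replicate 2, all 10 genes were still called higher, and the log2 fold change of *PSMB8* was 3.28.

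**Figure D4:**
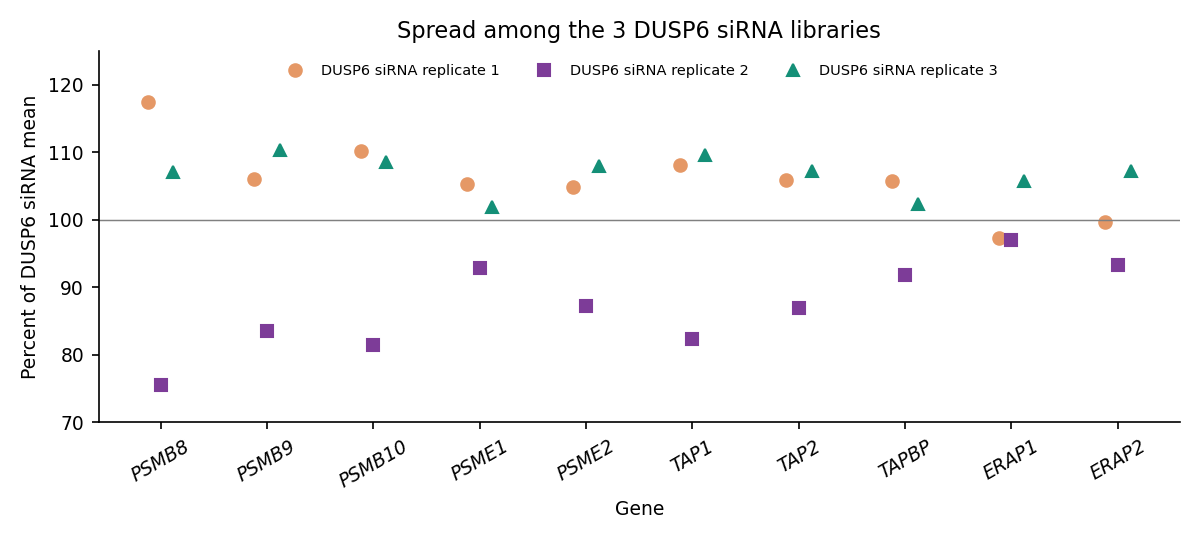
Value of each of the 10 genes in the 3 *DUSP6* siRNA libraries, as percent of their mean (grey line at 100), with circles, squares and triangles for replicates 1, 2 and 3. The squares of replicate 2 are the lowest for every gene, from 75.5% for *PSMB8* to 97.0% for *ERAP1*, and the highest value is 117% for *PSMB8* in replicate 1.

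The median log2 fold change of the 10 genes was 1.74, against -0.01 over all tested genes, and the medians of the other proteasome lists were lower. Of the 11 other subunits of the 20S core, 7 were called higher and 0 lower, against 19.7% and 24.7% of all tested genes. Their median log2 fold change was 0.46. *PSMA1* (log2 fold change 0.60, limma adjusted p = 0.0453), *PSMB4* (0.56), *PSMA6* (0.54) and *PSMA3* (0.53) changed most. The number called was 4 without *DUSP6* siRNA replicate 3, and *PSMA1* had a wide spread with scrambled siRNA (59.7 ± 20.1, SD, n = 3). Of the 18 subunits of the 19S cap, which recognises ubiquitin chains and feeds proteins into the core, 3 were called higher and 1 lower, with a median of 0.09, and these shares were not above the 19.7% and 24.7% over all tested genes. *PSMD6* rose by 0.60, *PSMC4* by 0.30 and *PSMC2* by 0.25, and *PSMD8* fell by 0.31 on the log2 scale. Under quantile normalization 9 were called higher and 0 lower, 1 was called higher when any 1 of the *DUSP6* siRNA libraries was left out and 5 without scrambled siRNA replicate 3, the only library whose loss kept the lower call. Of the 8 assembly factors and other regulators, 4 were called higher and 1 lower, against the same 19.7% and 24.7%. *PSMG4* (log2 fold change 0.67), *PSMG2* (0.45) and *POMP* (0.37), which help to build the core, were higher, and *PSMF1*, a proteasome inhibitor, had a log2 fold change of -0.49. *PSMG4* shares 13.3% of its exon sequence with *SLC22A23* and *PSMF1* 6.56% with *TMEM74B*, so both are uncertain. The higher count was 2 without scrambled siRNA replicate 2 or any 1 of the *DUSP6* siRNA libraries, and the lower count 0 without scrambled siRNA replicate 1 or *DUSP6* siRNA replicate 2.

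Transcripts of the class I molecules that receive the peptides rose with those of the 10 genes. All 7 tested class I chains were called higher, while over all tested genes 19.7% were called higher and 24.7% lower. Their median was 2.09 on the log2 scale. The largest changes were in *HLA-B* (4.76), *HLA-F* (3.39), *B2M* (2.46), the light chain shared by all class I molecules, and *HLA-C* (2.09). *HLA-F* and *HLA-G* had a mean under 1 with scrambled siRNA and passed the filter only through the *DUSP6* siRNA libraries, and reads could have been split between these related genes. *HLA-F* also shares 12.4% of its exon sequence with *HLA-F-AS1*. Another list held 7 other genes of loading and quality control in the endoplasmic reticulum, including calreticulin, calnexin and PDIA3. Of these, 1 was called higher and 0 lower, shares not above those over all tested genes. The gene called higher was *TAPBPL*, a tapasin relative that edits peptides. It had 7.69 ± 1.36 (SD, n = 3) against 11.9 ± 0.417 (SD, n = 3) and a log2 fold change of 0.58 (adjusted p = 0.00660 by limma). Its value is uncertain, as 10.6% of its exon sequence is shared with *VAMP1*. The other 6 were between -0.21 and 0.22. Under quantile normalization 5 of the 7 were called higher, and without scrambled siRNA replicate 3 the counts were 2 higher and 1 lower. Of 8 other peptidases, 3 were called higher and 1 lower, against 19.7% and 24.7% of all tested genes. *LAP3*, a cytosolic leucine aminopeptidase, had 54.8, 43.9 and 57.2 against 130, 118 and 134, a log2 fold change of 1.28 ± 0.12 (SE, adjusted p = 6.23e-05 by limma). *BLMH* (0.74) and *LNPEP* (0.48) were higher too, and *NPEPPS*, the puromycin-sensitive aminopeptidase, had a log2 fold change of -0.65.

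**Figure D5:**
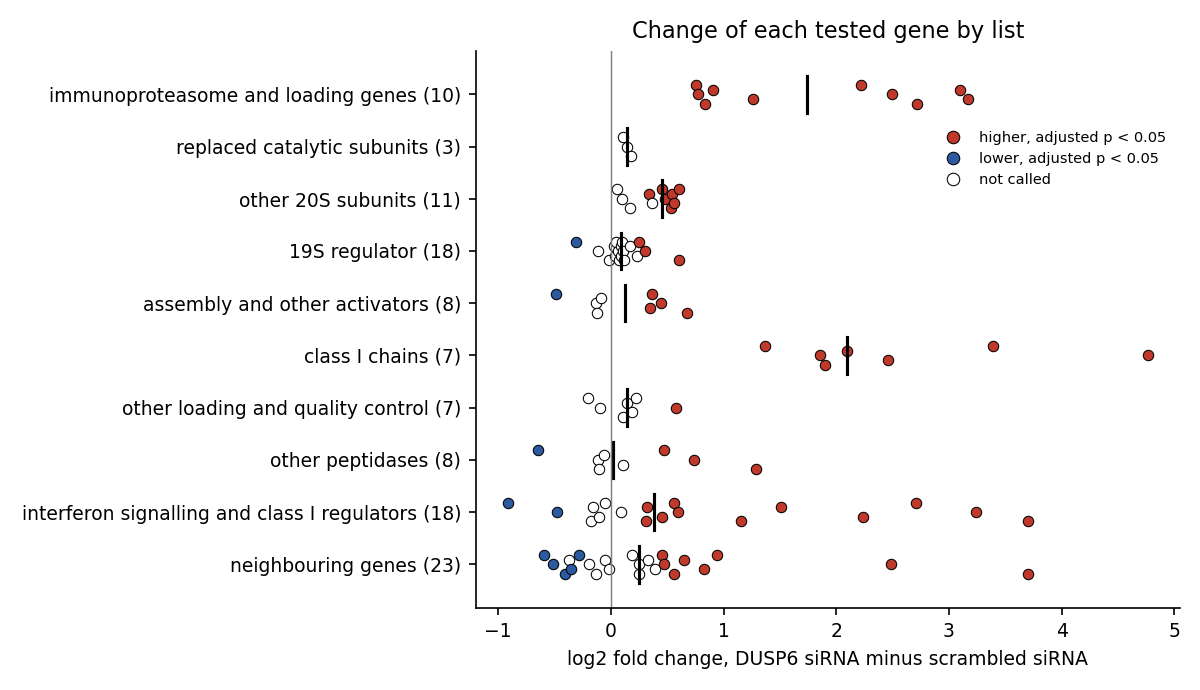
log2 fold change (*DUSP6* siRNA minus scrambled siRNA) of every tested gene in 10 lists, with the number tested in brackets, red for genes called higher, blue for lower, white for not called, and a black line at the median of each list. The 10 genes of the immunoproteasome and peptide loading (median 1.74) and the class I chains (2.09) stand to the right of the 20S subunits (0.46) and the 19S cap (0.09).

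Of 18 genes of interferon signalling and class I regulation, 11 were called higher and 2 lower, against 19.7% and 24.7% of all tested genes. The median of the 18 was 0.38 on the log2 scale. Large increases were seen in *IRF9* (3.70), part of the factor that binds the ISRE, *NLRC5* (2.71), the transactivator of class I genes, and *IRF1* (2.24), an interferon-induced transcription factor. The value of *IRF1* is uncertain, since 22.9% of its exon sequence is shared with *IRF1-AS1*. *IRF9* went from 17.2 ± 8.03 to 222 ± 2.71 (SD, n = 3 each). The part of these factors in the increase of the 10 genes was not tested. An effect of the siRNAs themselves and one of the loss of *DUSP6* cannot be told apart, because the 3 libraries with *DUSP6* siRNA are the 3 with low *DUSP6*.

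To find genes with a similar profile, every other tested gene was compared with the mean profile of the 10 genes, as the root mean square difference in log2(value + 1), centred on the scrambled siRNA mean, over the 6 libraries. The nearest were *SIK1* (difference 0.0782, Pearson r = 0.996), *HLA-E* (0.0807, r = 0.998), *RAET1L* (0.103, r = 0.995), *NR4A2* (0.112, r = 0.994) and *CPXM1* (0.122, r = 0.994). The correlations are over 6 libraries that fall into 2 groups, so any gene with a large increase gives a high value. *SIK1*, *RAET1L* and *CPXM1* had a mean under 1 with scrambled siRNA and passed the filter only through the *DUSP6* siRNA libraries, so their distance depends on the pseudocount. *HLA-E*, a class I chain, had 29.1, 23.8 and 29.8 with scrambled siRNA and 118, 94.0 and 106 with *DUSP6* siRNA.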

How the data were processed

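RNA-sequencing values of 6 MDA-MB-453 libraries (3 scrambled siRNA, 3 *DUSP6* siRNA) were used. Libraries were made with the Illumina TruSeq Stranded mRNA kit. Alignment to hg38 and assignment to the gene models of RefSeq were done by the authors with Rsubread (2.0.0 in the processing notes, which also name edgeR) at default settings, and the deposited unit is a normalized signal, linear and with 1 value for each gene in a library. In every library 100% of the values were whole multiples of 1 step (tolerance 1e-06), which gave back the reads. TMM factors of edgeR, computed on the reads, matched the step sizes (largest difference 2.6e-15).

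Values were taken as log2(value + 1), and the 12862 genes with a mean of at least 1 entered limma (version 3.58.1, R 4.3.3, lmFit and a trended eBayes). Adjustment was by Benjamini-Hochberg, and an adjusted p under 0.05 was a call. Alternatives are given in the closing section, and edgeR 4.0.16 was run on the recovered reads. The tests were checked on simulated data. Gene positions came from RefSeq, which held 22359 of 22807 IDs, promoter windows from RefSeq (GRCh38.p14), and transcript lengths and exon overlap from GENCODE v44, which may differ from the gene models the authors used. The genes and lists were chosen with earlier results of these data known. Named are the 10 genes, *DUSP6*, the partners in the ratios and the 5 nearest profiles. Up to 4 called genes of each list and 5 neighbouring genes with the largest changes are named too. *RNF31* and *PSMB8-AS1* are also named for their overlap, as are *RGL2* and other genes that share exon sequence or span with a named gene. Named by choice after their values were seen are *CD68*, *PTPRC*, *HLA-DRA*, *COL1A1*, *HLA-G* and the other markers. Some genes of the lists are not reported here by name. Of the genes in the lists, 5 markers were not analysed here.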

Additional observations from a re-analysis of the deposited data

How the results depend on the processing

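The 10 genes were called higher under every alternative in which they were tested: edgeR's quasi-likelihood test on reads, eBayes with no trend, quantile normalization, rescaling with ratio medians, a replicate block, the smaller pseudocount (0.1), all genes unfiltered, a minimum mean of 10 (which left out *PSMB9*), and each of the 6 fits without 1 library. The log2 fold change of *PSMB9* moved from 2.22 to 4.11 with the smaller pseudocount and 4.64 with edgeR, and that of *PSMB8* from 3.10 to 3.66 and 3.74. *DUSP6* ranged from -2.22 to -1.76 across the fits without 1 library. The replicate numbers of the labels did not pair the libraries (correlations of deviations 0.01, 0.09 and -0.08), and not every library correlated best with its own number. With the replicate block 2495 genes were higher and 3096 lower, and the calls of the 10 genes did not change. With a mean value of at least 10, 1639 of all genes were higher and 0 of the other loading genes, with fewer genes tested. Quantile normalization gave 9 genes of the 19S cap higher and 0 lower, 0 assembly factors lower, 5 loading genes higher and 3 neighbouring genes lower, and without the filter 0 genes of the 19S cap were lower and 2 assembly factors higher; the cause was not tested. Without 1 library, counts ranged from 1535 (without *DUSP6* siRNA replicate 2) to 3213 (without scrambled siRNA replicate 3) for all genes higher, with 1686 without *DUSP6* siRNA replicate 3, 0 to 2 for replaced subunits higher (2 without scrambled siRNA replicate 3), 4 to 9 for 20S subunits higher, 1 to 5 and 0 to 1 for the 19S cap higher and lower, 2 to 4 and 0 to 1 for assembly factors, 1 to 2 and 0 to 1 for loading genes, and 3 to 6 for neighbouring genes lower. The *PSME1* to *PSME2* difference ranged from -0.078 to 0.065, reversing at 0.065 without scrambled siRNA replicate 2 and 0.033 without *DUSP6* siRNA replicate 3. Depth limits *PSMB9* most, with 5 to 20 reads in the scrambled siRNA libraries.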

Other observations

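Genes within 50 kb of the 10 genes did not move as a block. Of these genes 32 had a value and 23 were tested, and 8 were called higher and 5 lower, against 19.7% and 24.7% of all tested genes, and their median was 0.25 on the log2 scale. Among the tested neighbours, the leading increases were next to *PSME2* on chromosome 14. *IRF9*, 14655 bases from *PSME2*, had a log2 fold change of 3.70, *REC8*, a meiotic cohesin gene 25470 bases away, rose from 4.76 ± 1.67 to 30.7 ± 4.94 (SD, n = 3 each) with a log2 fold change of 2.48 (adjusted p = 3.62e-05 by limma), *RNF31*, a subunit of the linear ubiquitin ligase complex whose RefSeq span lies 265 bases from that of *PSME2*, had 0.95, and *TM9SF1* had 0.83. The next in size was *SLC12A4*, a potassium-chloride cotransporter near *PSMB10*, at 0.65. *PSMB8-AS1*, which was too low to be tested, had a mean of 0.0454 against 1.28. The lower count was 3 without *DUSP6* siRNA replicate 1 or 2.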
